A study of Mus musculus with 1 sample.

Results

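Alveolar macrophages are the resident phagocytes of the airspaces, and the cells described here were those in which transcripts of *Txnip* and *Tsc22d3* were most concentrated in 1 library of wild-type mouse alveolar macrophages. Each cell was scored by the mean of its deposited values of these 2 genes, where a value is the natural log of 1 plus the transcripts per 10000 of the cell. The 200 cells with the highest score, of 2055 in all, were taken as members, and the remaining 1855 cells were the comparison. The score chose the members, so the levels of *Txnip* and *Tsc22d3* are given as a description of that choice. The library was prepared from CD45+CD11c+SiglecF+ cells sorted from the lungs of wild-type animals that carried loxP-flanked *Hdac3* (*Hdac3* fl/fl) without Cre, labelled as 8 to 12 weeks old and as from an FVB/NJ strain backcrossed to C57BL/6. The library of *Hdac3*-deleted cells was not analysed here. Transcripts were counted as unique molecular identifiers (UMIs), so that each UMI stands for 1 captured RNA molecule. By the study's account, the cells came from 1 adult mouse. With 1 library there is no replicate, cells of a library are not replicates of a condition, and every interval below covers counting error only.

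*Txnip* encodes thioredoxin-interacting protein, an alpha-arrestin that binds reduced thioredoxin and promotes the removal of glucose transporters from the cell surface. Its transcription is driven by the glucose-sensing factor MondoA with its partner Mlx, and by FOXO factors when growth factor signalling is low. *Tsc22d3* encodes GILZ, the glucocorticoid-induced leucine zipper, a small protein that binds NF-kB and AP-1 and dampens inflammatory transcription. It is a direct target of the glucocorticoid receptor and also of FOXO factors. In lung macrophages, glucocorticoids and the surfactant-handling programme directed by PPAR-gamma are both known to restrain inflammatory genes.

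*Txnip* lies on chromosome 3 (GRCm38, 96557957 to 96561883, plus strand) and *Tsc22d3* on chromosome X (140539528 to 140600659, minus strand). The 250 bases before the start of *Txnip* (GRCm38.p6, chr3:96557707-96557956, plus strand, sequence from RefSeq) are shown because the factors known to act on the gene bind there. Capitals mark the letters GTAAACA, the reverse complement of the FOXO motif TGTTTAC, and both copies of CACGAG, a variant of the E box that MondoA and Mlx recognise.

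Txnip upstream: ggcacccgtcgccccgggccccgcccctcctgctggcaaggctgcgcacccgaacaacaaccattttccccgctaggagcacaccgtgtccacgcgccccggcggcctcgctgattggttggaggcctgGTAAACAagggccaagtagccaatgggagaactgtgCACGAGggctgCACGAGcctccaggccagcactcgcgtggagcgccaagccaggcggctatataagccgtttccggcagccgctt

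The FOXO letters stood at -121 to -115 from the start, and 3.17% of 32851 RefSeq windows, each the 250 bases before a gene's start, held them on either strand. CACGAG stood at -85 to -80 and again at -74 to -69, and was held by 5.37% of windows. The canonical E box CACGTG, found in 6.02% of windows, was not in the *Txnip* window. None of these letters was found in the 3 windows of *Tsc22d3*. AGAACA, part of the element that the glucocorticoid receptor binds, was in 1 of the 3 *Tsc22d3* windows, at -185 to -180 on the opposite strand, against 16.1% of all windows. These matches describe letters in a window and say nothing about binding in these cells.

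The members carried 410 *Txnip* UMIs and 454 *Tsc22d3* UMIs, which is 41.9% and 29.3% of all UMIs of these genes in the library. Per member, *Txnip* ran from 0 to 9 UMIs with a median of 2, and in the other cells from 0 to 7 with a median of 0. *Tsc22d3* ran from 0 to 10 with a median of 2 in members, and from 0 to 8 with a median of 0 in the others. Pooled over cells, the level of *Txnip* was 6.23 UMIs per 10000 in members and 0.867 in the others, a ratio of 7.18. *Tsc22d3* was at 6.90 and 1.67 per 10000, a ratio of 4.12. At least 1 *Txnip* UMI was seen in 98.0% of members and 21.7% of other cells, and at least 1 *Tsc22d3* UMI in 97.5% and 40.1%. When each cell with enough UMIs was thinned to 2000 (176 members and 1580 others, leaving out 24 and 275), these shares became 79.0% and 15.1% for *Txnip* and 81.8% and 25.5% for *Tsc22d3*. The library held no cell type known to lack these transcripts, so the share of cells with a UMI that free RNA alone would give could not be measured.

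The numbers behind a single cell were small. Exactly 1 *Txnip* UMI was found in 85 members and none in 4, and exactly 1 *Tsc22d3* UMI in 76 members and none in 5. Both transcripts were found in 191 members, but also in 147 other cells, whose median depth was 4877 UMIs against 3123 in those members. Among cells with exactly 1 UMI of each gene, the 32 members had 1417 to 2690 UMIs and the 79 non-members 2700 to 7756, so depth alone decided on which side such a cell fell. At least 2 UMIs of each gene were found in 62 members and in 7 other cells. Of the other cells, 597 carried *Tsc22d3* only, 256 carried *Txnip* only and 855 carried neither.

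**Figure D1:**
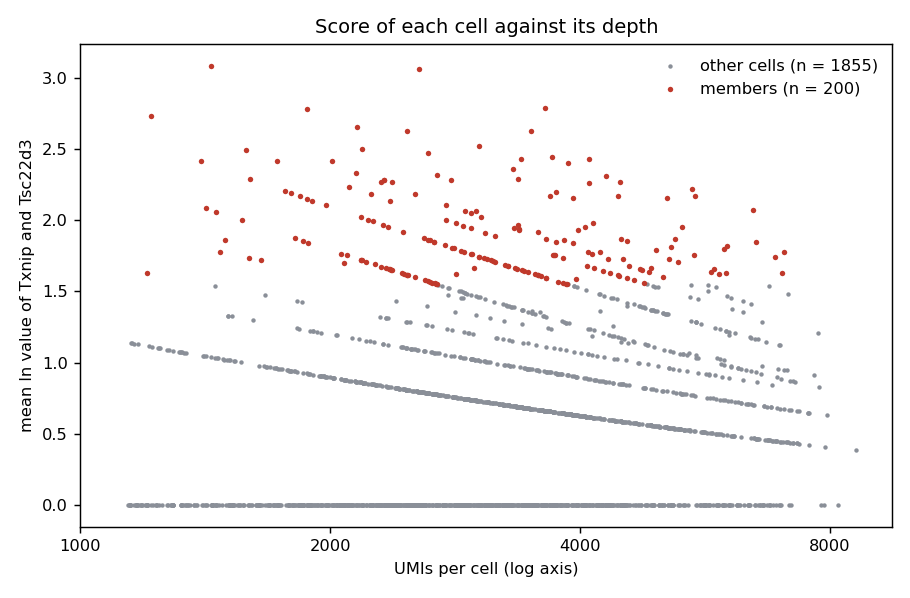
Mean ln value of Txnip and Tsc22d3 (vertical axis) against UMIs per cell (horizontal log axis) for 200 members in red and 1855 other cells in grey, 1 point per cell. The bands of points are cells with equal numbers of UMIs of the 2 genes, and members begin at a score of 1.55.

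The scores gave no gap at the boundary. They ran from 3.08 at the first rank through 1.81 at rank 100 to 1.551 at rank 200, and the next cell, outside the group, scored 1.550. The cell at rank 200 had 1 *Txnip* and 2 *Tsc22d3* UMIs among 3854, and the next cell had 1 and 3 among 4819. The median score was 1.62 in the 50 cells just inside the limit and 1.49 in the 50 just outside it. The group is therefore a range of a continuous score and not a cluster.

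To see how far the choice carried over to molecules it had not used, the UMIs of every cell were divided at random into 2 sets of equal expected size (median 1641 UMIs per cell each). The rule was applied to the first set and the genes were read in the second. *Txnip* was at 2.77 per 10000 in the chosen cells and 1.15 in the rest, a ratio of 2.41 (95% interval 1.91 to 3.02), against 9.91 in the set used for choosing. *Tsc22d3* was at 4.11 and 1.84, a ratio of 2.23 (1.85 to 2.68), against 5.07. Over 4 other random divisions, the ratio lay between 2.78 and 3.27 for *Txnip* and between 1.95 and 2.33 for *Tsc22d3*. On unused molecules the enrichment was thus present but much smaller than in the values that chose the cells, and 110 of the 200 members were chosen again from the first set.

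Members were slightly shallower than the others. Their UMIs per cell ran from 1202 to 7049 with a median of 3054.5 (95% interval of the median 2836 to 3367), and those of other cells from 1143 to 8603 with a median of 3292 (3229 to 3403). The medians of detected genes were 1386.5 and 1460. The 100 highest-scoring members had a median of 2778 UMIs and the next 100 a median of 3381. Across 10 bands of depth, members made up between 5.34% of cells, in the deepest band, and 13.1%, at 2559 to 2910 UMIs.

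The mitochondrial share, the percentage of a cell's UMIs on 13 mitochondrially encoded genes, was modestly higher in members. Its median was 3.66% (3.39 to 3.92) with a range of 1.3% to 17.5%, against 3.17% (3.11 to 3.24) and a range of 0.0343% to 21.6% in the other cells. The ranges overlapped almost entirely. Within bands of depth, the median was higher in members in 9 of 10 bands, the exception being 3647 to 4071 UMIs with 3.02% against 3.13%. The 100 highest-scoring members had a median of 3.88% and the next 100 one of 3.38%. The extreme of the mitochondrial share was not over-represented, since 9.0% of members and 9.81% of other cells were among the 200 cells highest in it. A share above 5% was found in 21.5% of members (exact interval 16.0 to 27.8) and 18.4% of others (16.6 to 20.2). The part of depth and mitochondrial share in the gene differences that follow is shown by the values weighted over bands of each, given beside them.

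**Figure D2:**
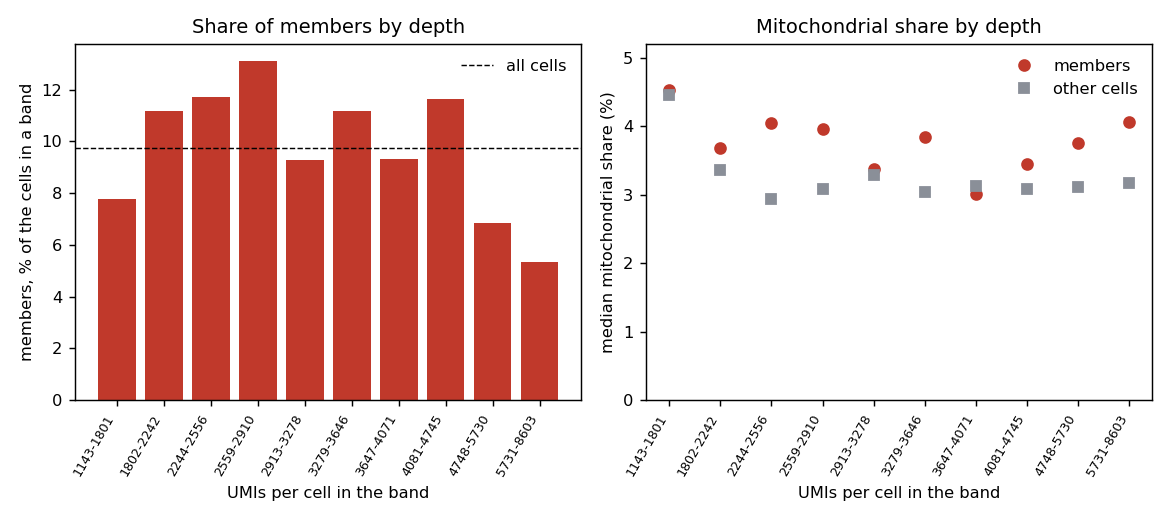
Left, percentage of the cells in each of 10 depth bands that were members (bars), with the percentage in all cells as a dashed line. Right, median mitochondrial share in members (red circles) and other cells (grey squares) of the same bands, higher in members in 9 of 10.

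Members carried the alveolar macrophage programme. All 29 measured identity genes had at least 400 UMIs in the library. None differed between members and other cells by 1.5-fold, against 2.42% of all tested genes, so the lack of calls is not particular to this list. Their summed level was 645 UMIs per 10000 in members and 569 in the others, with 20 of 29 ratios above 1 and a median log2 ratio of 0.15. *Lyz2*, lysozyme, was at 200.7 and 162 per 10000 (ratio 1.24, 1.22 to 1.26). *Abcg1*, the sterol exporter that clears surfactant cholesterol, was at 14.6 and 11.3 (1.29, 1.21 to 1.38), and *Chil3*, a secreted chitinase-like lectin, had a ratio of 1.13. *Pparg*, the master regulator of the type, had a ratio of 0.884 and *Siglecf* one of 0.877. *Fabp4*, a fatty acid carrier under PPAR-gamma control, was the lowest of those named at 0.684 (0.585 to 0.796).

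Most markers of other cells were scarce in both groups. Exceptions included *Epcam*, with a UMI in 61.0% of members and 57.7% of other cells, and *Cd14*, in 56.0% and 74.3%. Neutrophil markers summed to 0.501 UMIs per 10000 in members and 0.489 in the others, and the 3 measured endothelial and stromal markers to 2 UMIs in members and 19 in the others. Of 11 measured monocyte and interstitial macrophage markers, *C1qa* and *Cx3cr1* had no UMI in members, and the list summed to 4.68 per 10000 against 7.10. Of the 2 genes of this list with 400 UMIs, *Cd14*, the lipopolysaccharide co-receptor, was at 3.39 and 5.57 (0.608, 0.529 to 0.696), and *Apoe*, a lipoprotein abundant in recruited macrophages, at 0.349 and 0.628 (0.556, 0.349 to 0.846). *Apoe* was not stable, at 0.767 in thinned cells and 1.23 when cells were ranked by *Txnip* alone. Lung epithelial markers came to 4.19 and 3.51 per 10000, most of it *Epcam* (1.27, 1.11 to 1.45), while the surfactant genes *Sftpb* and *Slc34a2* were at 0 in members. No red cell gene was measured. Among 6 measured lymphocyte markers, *Ms4a1*, *Ltb* and *Il7r* were at 0 in members. A further exception was *Jchain*, the joining chain of secreted antibodies, whose UMIs came almost entirely from 1 cell.

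That cell ranked 187 and held 940 of the library's 1006 *Jchain* UMIs, which was 23.8% of its own 3952 UMIs. It also held 5 *Cd79a* and 6 *Mzb1* UMIs, genes of the B cell lineage, of which the other 199 members had none. It had 57 *Cd74*, 20 *Lyz2*, 15 *Chil3* and 9 *Tsc22d3* UMIs and no *Txnip*. The other 199 members together had 318 *Cd74*, 13192 *Lyz2* and 9954 *Chil3* UMIs. The cell was thus above the mean of those members in *Cd74* and below it in *Lyz2* and *Chil3*. Without it, *Jchain* had 4 UMIs in members and a ratio of 0.647 (0.171 to 1.74), and 12 genes were called higher in members and 50 lower.

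Beyond the 2 genes of the rule, few transcripts separated members from the rest. UMIs were summed over members (659268) and over other cells (6563710), levels were taken per 10000, and a gene was called where its ratio was at least 1.5 or at most 1/1.5. Of 2517 genes with at least 400 UMIs over all cells, 13 were called higher in members (0.516%) and 48 lower (1.91%), 2.42% in either direction. Ratios from the 5th to the 95th percentile ran from 0.751 to 1.26, and 48.7% of genes were above 1, so the called genes were the edges of a narrow distribution centred near no change. At a limit of 5/4 or 4/5, 137 genes (5.44%) were higher and 232 (9.22%) lower. At either limit, more genes were lower than higher. Members held far fewer UMIs, so for genes near the minimum counting error alone passes the lower limit more readily than the upper. Nothing is therefore read from this difference in counts.

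The genes lowest in members were led by *Slc7a11*, the cystine transporter that supplies glutathione synthesis. It had 17 UMIs in members and 566 in other cells, at most 2 in any member and up to 13 in another cell, and was at 0.258 and 0.863 per 10000 (ratio 0.299, 0.173 to 0.484). The size of this ratio depended on the rule: it was 0.661 when cells were ranked by *Txnip* alone, 0.478 by *Tsc22d3* alone, 0.589 with 400 members and 0.668, no longer past the limit, when rule and values were both taken from thinned cells. *Hmox1*, haem oxygenase, had a median of 1 UMI and a maximum of 14 in members against a median of 3 and a maximum of 66 in other cells. Its level was 7.09 and 12.4 per 10000 (0.573, 0.521 to 0.630). *Txnrd1*, the reductase that recycles thioredoxin, had a ratio of 0.658 (0.50 to 0.851), and *Gclc*, the catalytic subunit of the first enzyme of glutathione synthesis, one of 0.664 (0.452 to 0.946). Its partner *Gclm* stood at 0.797 (0.563 to 1.10). *Hmox1*, *Txnrd1* and *Gclc* were the 3 called lower among 11 thioredoxin, peroxiredoxin and antioxidant genes with enough UMIs, against 1.91% of all tested genes. None was called higher, and the median log2 ratio was -0.17. Thioredoxin itself (*Txn1*), the protein that TXNIP binds, was at 12.0 and 13.5 per 10000 (0.888, 0.825 to 0.955), and peroxiredoxin *Prdx1* was level at 1.02 (0.971 to 1.07).

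Both metallothioneins, small proteins that bind zinc and copper, were lower. *Mt2* ran from 0 to 9 UMIs in members with a median of 1 and from 0 to 30 in other cells with a median of 2, which gave 3.84 and 7.29 per 10000 (0.527, 0.463 to 0.598). *Mt1* had medians of 5 and 9 UMIs and levels of 21.8 and 34.0 (0.640, 0.607 to 0.675). Of the members, 2.50% (0.817 to 5.74) were among the 200 cells highest in *Mt1* and *Mt2*, against 10.5% (9.15 to 12.0) of the other cells. Metallothionein genes are known to be induced by metals, by oxidative stress and by glucocorticoids, and they are the 2 members of the glucocorticoid list that were called.

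*Hilpda*, a lipid droplet protein that blocks lipolysis and is induced by hypoxia and fatty acids, had 266 UMIs in members and 4944 in the others. It ran from 0 to 11 UMIs with a median of 1 in members and from 0 to 18 with a median of 2 in the other cells, at levels of 4.04 and 7.53 per 10000 (0.536, 0.472 to 0.607). *Dusp5*, a nuclear phosphatase that switches off ERK, was at 1.72 and 3.28 (0.523, 0.429 to 0.632) and was seen in 39.5% of members and 60.9% of others, or 29.5% and 45.5% after thinning. *Thbd*, thrombomodulin, an anticoagulant receptor, was at 1.12 and 2.12 (0.531, 0.414 to 0.671). *Gk*, glycerol kinase, had a ratio of 0.502, the transcription factor *Zbtb1* 0.459, the nuclear lamin *Lmnb1* 0.50, the cyclin-dependent kinase subunit *Cks1b* 0.555 and *Ccdc59* 0.566. *H2-Eb1*, an antigen-presenting chain, was at 0.514 and was the only 1 of 6 class II genes with enough UMIs to be called, against 2.42% of all tested genes. It was seen in 7.0% of members and 9.60% of other cells, with at most 4 UMIs in any member and up to 72 in another cell. The single-cell distributions of all these genes overlapped widely, as the ranges of *Mt2* and *Hilpda* show.

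**Figure D3:**
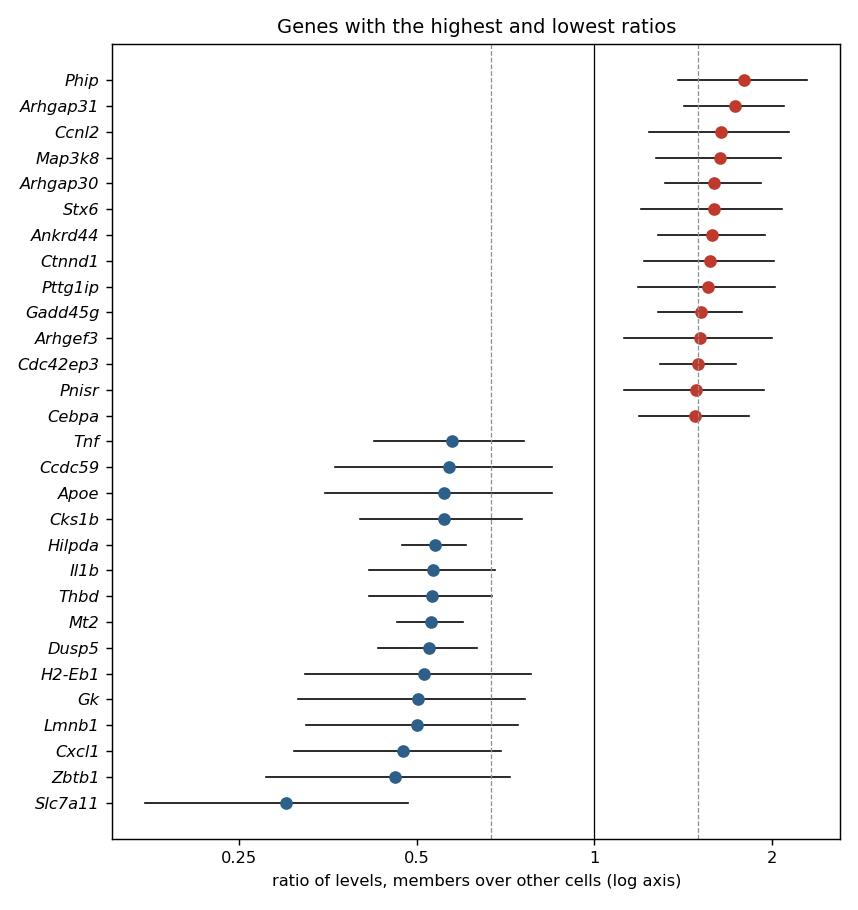
Ratio of the pooled level in members over that in other cells (log axis) for the 15 highest and 15 lowest of 2517 genes, with exact 95% intervals of counting error as bars and dashed lines at 1.5 and 1/1.5. Jchain, whose UMIs came from 1 cell, is left out of the plot; Slc7a11 is lowest at 0.299 and Phip highest at 1.79.

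Some inflammatory transcripts were lower as well. Of 11 cytokines and chemokines with enough UMIs, 4 were called lower, against 1.91% of all tested genes. None was called higher, against 0.516%, and the median log2 ratio was -0.47. *Cxcl2*, a neutrophil chemoattractant, was at 7.73 and 13.02 per 10000 (0.594, 0.542 to 0.649). *Cxcl1* had 27 UMIs in members and 569 in others (0.473, 0.309 to 0.695), and *Tnf* had 51 and 887 (0.573, 0.423 to 0.760). *Cxcl1* was seen in 9.0% of members and 9.81% of other cells, or 3.98% and 6.71% after thinning. At most 5 of its UMIs were in any member and up to 63 in another cell, a spread that its interval does not cover. *Il1b*, the pyrogenic interleukin, was at 1.08 and 2.02 (0.533, 0.414 to 0.677). The chemokines *Ccl3* and *Ccl4* had ratios of 0.681 and 0.720. In contrast, *Ccl6*, which alveolar macrophages make constitutively, stood at 1.01 (0.986 to 1.04) and *Il18* at 0.976 (0.908 to 1.05).

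Of members, 5.00% (2.42 to 9.0) were among the 200 cells highest in *Cxcl1*, *Cxcl2*, *Cxcl3*, *Tnf* and *Il1a*, and of other cells 10.2% (8.90 to 11.7). Ranked by *Tsc22d3* alone, *Cxcl1* had a ratio of 1.13 and *Tnf* 1.05, above 1, and *Cxcl2* one of 0.714. With the 200 chemokine-high cells left out on both sides, a choice made after the data were seen, *Cxcl1* stood at 1.09, *Tnf* at 1.05 and *Cxcl2* at 0.944, but those cells were chosen on these same genes, so nothing is read from that move. Genes not used to choose them were still lower without them, with *Il1b* at 0.641, *Hilpda* at 0.541, *Mt2* at 0.581, *Slc7a11* at 0.389 and *Dusp5* at 0.515.

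The genes of the glucocorticoid list did not move in 1 direction. *Tsc22d3*, itself one of the best known genes of this response, is not counted. The 24 measured glucocorticoid-induced genes summed to 65.7 UMIs per 10000 in members and 81.0 in the others (0.811, 0.787 to 0.837). The 2 metallothioneins came to 25.6 and 41.3 of these. Of the 24 genes, 15 had enough UMIs. None was called higher and the 2 metallothioneins were called lower, against 0.516% and 1.91% of all tested genes. In all, 7 ratios were above 1, and the median log2 ratio was -0.12 against -0.01 over all genes. *Fkbp5*, the receptor's own co-chaperone and its most used readout, was at 1.44 and 1.23 per 10000 (1.18, 0.942 to 1.46). *Sgk1*, a kinase of ion transport, was at 9.23 and 7.22 (1.28, 1.17 to 1.39). *Klf9*, a transcription factor, had a ratio of 1.30 (0.939 to 1.77). *Dusp1*, the phosphatase that shuts off p38, stood at 0.92, the NF-kB inhibitor *Nfkbia* at 0.90 and *Anxa1*, annexin, at 1.06 (0.930 to 1.21). *Zfp36*, which destabilises cytokine mRNA, was at 0.724. The receptor gene *Nr3c1* had a ratio of 0.848 (0.634 to 1.12). *Per1*, with 24 and 262 UMIs, and *Ddit4*, with 0 and 2, were too rare for a call.

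The pathways known for *Txnip* gave few measurable genes. Of 10 measured genes of the MondoA axis, 3 had enough UMIs and none was called. Since 2.42% of all tested genes were called, no call is what lists this small would mostly give. The same holds for the FOXO and glycolysis lists below. *Klf10*, a zinc finger factor, had the highest ratio of the 3 at 1.45 (1.14 to 1.83). *Arrdc4*, the arrestin most closely co-regulated with *Txnip*, had 52 UMIs in members and 347 in the others, under the minimum, with a ratio of 1.49 (1.09 to 2.00), and *Arrdc3* had 15 and 201 (0.744, 0.409 to 1.26). Among relatives of the other gene, *Tsc22d2* had a ratio of 1.03 (0.729 to 1.43). *Tsc22d4*, with 29 and 164 UMIs, was under the minimum at 1.76 (1.14 to 2.63). Of 22 measured FOXO targets and quiescence genes, 7 had enough UMIs, none was called and 1 ratio was above 1. The FOXO target *Klf2*, with 37 and 251 UMIs, was under the minimum at 1.47 (1.01 to 2.08), and the antiproliferative *Btg1* was at 0.913 (0.838 to 0.994). Glycolysis, which TXNIP is known to restrain through glucose uptake, had 10 genes with enough UMIs, no call and a median log2 ratio of 0.04.

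**Figure D4:**
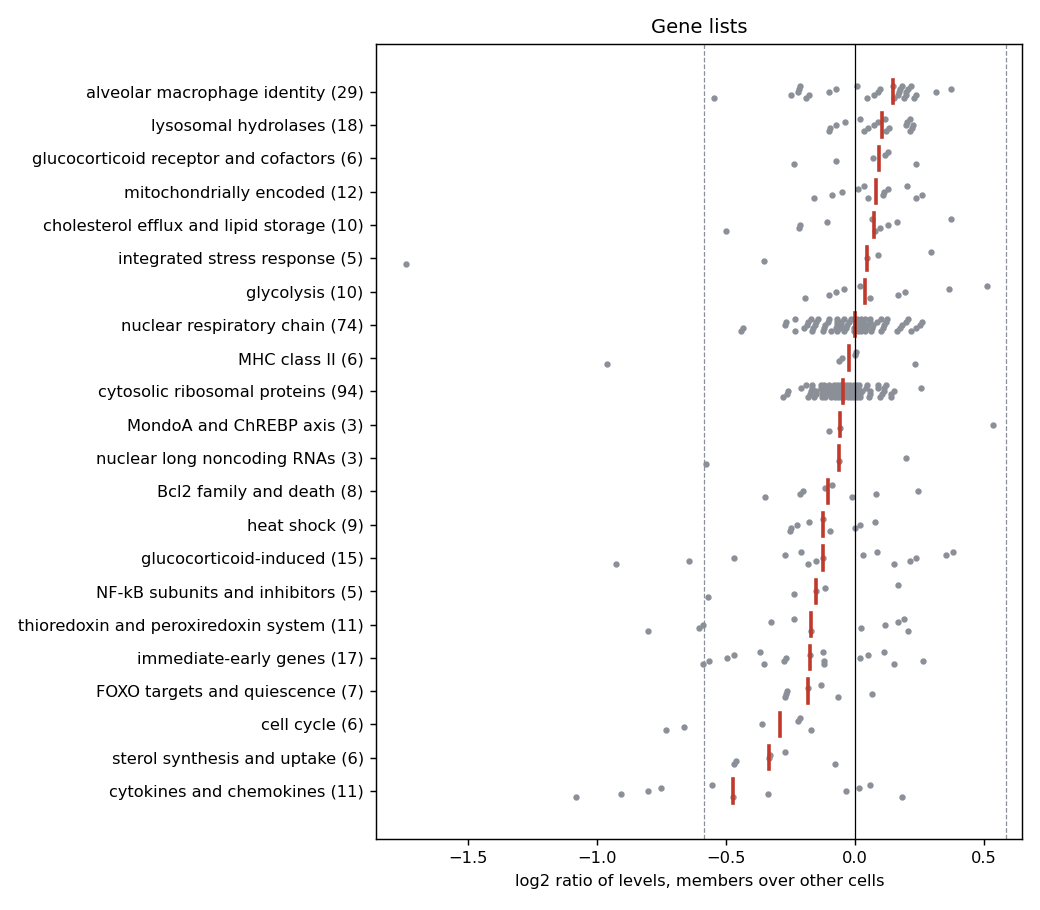
Log2 ratio of the level in members over other cells for each gene (grey points) of the lists with at least 3 genes above 400 UMIs, with the list's median as a red bar, the number of genes in brackets, and dashed lines at 1.5-fold. Metallothioneins, with 2 genes, are not drawn; the cytokines lie lowest at a median of -0.47 and the alveolar macrophage identity genes highest at 0.15.

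The genes called higher were weakly expressed. *Arhgap31*, a GTPase-activating protein for Cdc42 and Rac, had 125 UMIs in members and 720 in the others, at 1.90 and 1.10 per 10000 (1.73, 1.42 to 2.09), and was seen in 42.5% of members and 30.1% of other cells, or 31.8% and 19.1% after thinning. *Cdc42ep3*, an effector of Cdc42, had a median of 1 UMI in members and 0 in others and was at 3.20 and 2.14 (1.5, 1.29 to 1.74). *Arhgap30* had a ratio of 1.59 (1.32 to 1.91) and *Arhgef3* one of 1.51 (1.12 to 2.00). *Phip*, a chromatin-binding protein, was at 1.15 and 0.643 (1.79, 1.39 to 2.30), the highest ratio after *Jchain*. *Map3k8*, the kinase TPL2 that activates ERK downstream of Toll-like receptors, had a ratio of 1.63 (1.27 to 2.07), and *Gadd45g*, a growth arrest gene, was at 2.61 and 1.73 (1.51, 1.28 to 1.78). The splicing-associated *Ccnl2* had 1.64 and *Pnisr* 1.48, the catenin *Ctnnd1* 1.57, *Ankrd44* 1.58, *Pttg1ip* 1.56 and the vesicle fusion gene *Stx6* 1.59. *Cebpa*, a transcription factor of the myeloid lineage, was at 1.52 and 1.03 (1.48, 1.19 to 1.83). With *Jchain* these are the 15 highest genes, of which *Pnisr* and *Cebpa* did not reach 1.5.

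Read within bands of depth or mitochondrial share, the named genes changed little, but they depended on the rule. Weighted over bands of depth, all of the 15 highest and all of the 15 lowest kept their direction, and 12 and 15 of them stayed past 1.5-fold. Weighted over bands of mitochondrial share, the numbers were 13 and 15. In cells thinned to 2000 UMIs, every direction was kept, but 6 of the 15 highest stayed past 1.5-fold against 14 of the 15 lowest. Ranked by *Txnip* alone, 4 of the 15 highest and 13 of the 15 lowest were past 1.5-fold, and by *Tsc22d3* alone 4 and 7. With rule and values both from thinned cells, the numbers were 5 and 7. *Dusp5* at 0.790 and *Thbd* at 0.721 were among the 15 lowest that lost their call by *Tsc22d3* alone. *Hmox1*, which is not one of the 15 lowest, also lost its call there, at 0.782. Among the lowest genes, *Mt2* was at 0.529 weighted over depth and 0.533 over mitochondrial share, *Hilpda* at 0.542 and 0.540, and *Slc7a11* at 0.306 and 0.293. The first 100 members by score and the next 100 were also read apart against the same other cells. All 30 genes had the same direction in both, with *Stx6* near 1 in the first 100 (1.05) and *Thbd* at 0.359 in the first 100 and 0.677 in the next.

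The levels were also read in 5 groups along the score: the 855 cells with no UMI of either gene, the 500 lower and 500 higher scoring of the remaining other cells, and the lower and the higher scoring 100 members. *Hilpda* was at 8.61, 7.19, 6.34, 4.69 and 3.27 UMIs per 10000 in this order. *Mt2* was at 8.00, 7.44, 6.04, 4.13 and 3.50, and *Hmox1* at 13.1, 12.1, 11.6, 7.79 and 6.28. These 3 were thus lower at each step of the score, including among cells that were not members. So were *Slc7a11*, *Dusp5* and *Il1b*. Some steps lay within counting error, such as *Hmox1* at 12.1 (11.7 to 12.6) and 11.6 (11.1 to 12.1). *Slc7a11* was at 1.03, 0.751, 0.740, 0.281 and 0.231, lower in the cells with a UMI and again in the members. *Dusp5* was at 3.36, 3.29, 3.15, 1.77 and 1.65, nearly level over the other cells with the step at the members. *Il1b* was at 2.45, 1.81, 1.63, 1.10 and 1.06. In the other direction, *Arhgap31* was at 0.996, 1.06, 1.29, 1.83 and 1.98. *Cdc42ep3* was at 1.89, 1.99, 2.67, 2.56 and 3.96, with no step up between the higher scoring other cells and the lower scoring members. Depth did not follow this order, with medians of 2878, 3926, 3310.5, 3381 and 2778 UMIs, but mitochondrial share did, with medians of 3.12%, 3.13%, 3.31%, 3.38% and 3.88%.

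**Figure D5:**
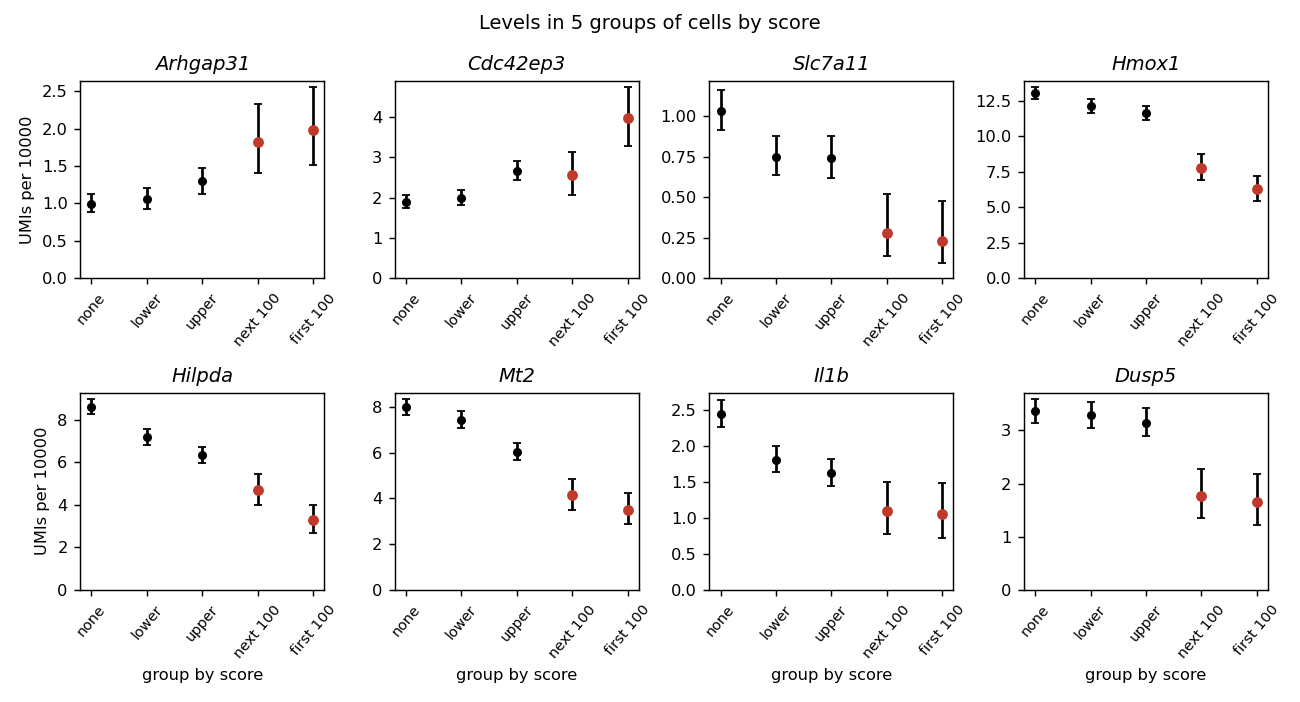
UMIs per 10000 (vertical axes from 0) of 8 genes in 5 groups of cells by score: no UMI of either gene (855 cells), the lower and upper 500 of the other cells with a UMI, and the next 100 and first 100 members by score (red). Bars are exact 95% intervals of counting error. Hilpda, Mt2, Hmox1, Slc7a11, Dusp5 and Il1b are lower at each step from left to right, though some of these intervals overlap.

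Cells with many cell cycle UMIs were fewer among members, by a count that was not adjusted for depth. At least 5 UMIs of cell cycle genes were found in 5.00% of members (2.42 to 9.0) and 10.0% of others (8.70 to 11.5). This count left out *H2afz*, *Stmn1*, *Tubb5* and *Hmgb2*. Of the 27 genes of the full list, 6 had enough UMIs, and none of these was above a ratio of 1. *Stmn1*, which destabilises microtubules, and *2810417H13Rik*, a PCNA-binding factor of replication, were called lower at 0.631 and 0.602, against 1.91% of all tested genes. The list's median log2 ratio was -0.29. *2810417H13Rik* turned to 1.33 when cells were ranked by *Tsc22d3* alone. Read apart, it was at 0.114 in the lower scoring 100 members and 1.17 in the higher scoring 100. A single member held 21 of its 39 UMIs in members. Its lower level thus did not follow the score. Some cell cycle genes under the minimum also differed between the lower and the higher scoring 100 members. *Cdk1* was at 0.113 and 2.00, *Birc5* at 0.105 and 1.23, and *Ccnb1* at 0.709 and 3.75. *Ccna2* was below 1 in both, at 0.492 and 0.289.

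Sterol synthesis and uptake genes lay below the background without any call, against 2.42% of all tested genes called. Of 6 with enough UMIs all 6 ratios were below 1, with a median log2 ratio of -0.33, and the 15 measured genes summed to 6.09 and 7.54 UMIs per 10000 (0.808, 0.728 to 0.895). *Insig1*, the sterol sensor, was at 1.22 and 1.68 per 10000 (0.724, 0.569 to 0.908). Of 17 immediate-early genes, 1 was called lower, against 1.91% of all tested genes. This was *Egr1* (0.665, 0.542 to 0.808), which stood at 1.01 by *Tsc22d3* alone and at 0.946 without chemokine-high cells. *Fos* was at 1.08 (0.991 to 1.18) and *Nr4a1*, an orphan receptor induced by activation, at 0.710 (0.622 to 0.808). Of 18 lysosomal genes none was called, against 2.42% of all tested genes, and 14 were above 1, against 48.7%. *Ctsd*, cathepsin D, was at 1.15 (1.09 to 1.21). Of the 5 genes of the integrated stress response with enough UMIs, the called one was *Slc7a11*, against 2.42% of all tested genes called. The lists that follow had no call, against 2.42% of all tested genes called in either direction. None of the 12 tested mitochondrially encoded genes (median log2 0.08), 74 nuclear respiratory chain genes (0.00), 94 ribosomal protein genes (-0.05), 9 heat shock genes (-0.12), 5 NF-kB subunits and inhibitors (-0.15), 10 genes of cholesterol efflux and lipid storage (0.07) or 8 genes of the Bcl2 family and cell death (-0.10) was called.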

How the data were processed

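Cells of 1 library were sorted, barcoded in droplets and sequenced. Per the labels and the study's methods, the authors aligned reads with Cell Ranger 2.1 to mm10 and filtered and normalised with Seurat in R 3.3.2. The deposited values are natural log (ln) values of 1 plus UMIs per 10000. A second deposited table holds scaled scores, after the authors regressed out depth and mitochondrial share, and was used only to apply the rule on its values. The stated removal of ribosomal genes and of cells over 5% mitochondrial share is not seen in the values, where 384 cells exceed it. Doublets were not called here.

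Whole UMIs were recovered from all values (100% within 0.01 of a whole number), giving 7222978 UMIs over 2055 cells and 11918 genes. Members and lists were chosen with earlier results of these data known. UMIs were summed over members and over other cells and divided by totals without the 2 genes of the rule. Ratios carry exact (Clopper-Pearson) 95% intervals, which cover counting error only. With 1 library no test and no p-value is possible. Named are the 15 highest and 15 lowest ratios among genes with at least 400 UMIs, and genes of lists where a list is described. Positions are from GENCODE M21. Calculations used Python 3.11.15, numpy 2.4.6, scipy 1.17.1, pandas 2.3.3 and matplotlib 3.10.9, checked on simulated data. Alternatives changed the number of members, the genes in the score, depth, filters, weights and the limits.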

Additional observations from a re-analysis of the deposited data

How the results depend on the processing

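No paired analysis was possible because there is 1 library. The count of called genes varied with the settings. Against 13 higher and 48 lower, it was 49 and 144 with 100 members, 5 and 10 with 400, 30 and 92 after thinning to 2000 UMIs, 20 and 75 in cells of at most 5% mitochondrial share, 238 and 358 with at least 100 UMIs per gene and 137 and 232 at limits of 5/4 and 4/5. Ranking by *Tsc22d3* alone gave 29 lower, and rule and values on thinned cells 27 higher. Part of the calls recurred: of the 13 and 48, ranking by *Tsc22d3* alone shared 4 and 9, ranking by *Txnip* alone 4 and 28, and rule and values on thinned cells 4 and 17. The median depth of members was 2778 UMIs with 100 members and 3373 with 400, and the ratio of *Txnip* on unused UMIs reached 3.27. Rankings by *Txnip* alone and by *Tsc22d3* alone shared 108 and 85 members with the group. *Slc7a11* was at 0.269 to 0.668 over all alternatives, *Hilpda* at 0.443 to 0.631, *Mt2* at 0.491 to 0.671 and *Arhgap31* at 1.51 to 1.90. Directions turned for *Jchain* (0.0912 with 100 members, 0.0533 by *Txnip* alone, 0.0509 by scaled scores, 0.0621 with rule and values thinned, 0.647 without its cell), which follows from that 1 cell leaving the group. They also turned for *Stx6* (0.991 with 100 members), *Apoe* (1.23 by *Txnip* alone), *2810417H13Rik* (1.23 with 100 members, 1.33 by *Tsc22d3* alone, 1.54 without cycling cells), *Stmn1* (1.11 without cycling cells), *Cxcl1* (1.13 by *Tsc22d3* alone, 1.09 without chemokine-high cells), *Tnf* (1.05 and 1.05) and *Egr1* (1.01 by *Tsc22d3* alone). For *Stx6*, *Apoe*, *Egr1*, *Stmn1*, *2810417H13Rik* with 100 members and the *Tsc22d3* ranking the cause was not tested. Of the values of single genes, 2901 moved by less than their interval, 248 moved by more and 16 turned. Values without cycling or chemokine-high cells of the genes that define those cells move toward or past 1 by construction. The alternatives without the *Jchain* cell and without chemokine-high cells were added after seeing the data.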

Other observations

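Ranking the cells by each gene on its own changed the size of some differences. By *Txnip* alone *Slc7a11* had a ratio of 0.66 and by *Tsc22d3* alone 0.48, and the median log2 ratio of the cytokines was -0.28 by *Txnip* alone and -0.09 by *Tsc22d3* alone. Whether the 2 rankings differ was not tested. Members were also set against the other extremes of the library: 18 of 200 were among the 200 cells highest in mitochondrial share, 10 among the 200 highest in chemokines and 5 among the 200 highest in metallothioneins.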
